A study of Arabidopsis thaliana with 4 samples.

Results

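Phi-class glutathione S-transferases are soluble plant enzymes that join the tripeptide glutathione to reactive or foreign compounds, and several also bind small ligands or reduce peroxides. They are known in Arabidopsis leaves as herbicide and stress response genes whose transcripts rise after salicylic acid, hydrogen peroxide or pathogen attack. The 10 genes described here are GSTF2 to GSTF10 and GSTF14, chosen by locus from the 33557 loci listed in each library. The family was chosen with the difference between the genotypes already known, since GSTF2 and GSTF3 had stood out in it, so the members' differences between genotypes are given as a description, without a test. Of the other phi-class genes, GSTF11, GSTF12 and GSTF13, the choice holds none, and they are set beside the members below.

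Poly(A) RNA was sequenced from 14-day-old Arabidopsis thaliana seedlings under a photoperiod of 16 h light and 8 h darkness, in 2 libraries of mos2-2 and 2 of the wild type Col-0. The mos2-2 plants carry a T-DNA insertion (SALK_033856) in MOS2, whose RNA-binding product the study links with the maturation of microRNAs, and are in the Col-0 background. It is a single insertion line with no second allele or complemented line among these libraries. Whether the replicates of a genotype were grown separately is not stated in the labels, so any p-value reflects just the spread among these libraries and may be partly technical. Fewer cells of a type and less RNA per cell cannot be told apart in such whole-seedling samples.

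The values are FPKM, fragments scaled to transcript length and library size, as deposited by the authors. In low genes these values fell into steps, and 1 read in a 1000 nt transcript was worth about 0.147 and 0.144 FPKM in mos2-2 replicates 1 and 2 and 0.237 and 0.148 FPKM in Col-0 replicates 1 and 2, so Col-0 replicate 1 was the shallowest library, at about 4200000 reads against 6700000 to 7000000 in the others. MOS2 itself was at 2.16 and 1.16 FPKM in mos2-2 and at 50.3 and 36.9 FPKM in Col-0, a log2 difference of -4.08 (SE 0.31; limma adjusted p 0.0727). Reads of 5.8S rRNA (AT3G41979) reached 73081 and 76744 FPKM in mos2-2, against 23211 and 20656 FPKM in Col-0. All 8 leaf markers examined had a higher mean log2 value in mos2-2, although not every one had a higher mean FPKM. Of these, 4 were higher without overlap, beside 13.1% of the 19236 genes averaging 1 FPKM or more. By limma none of the 8 had an unadjusted p below 0.05. Their summed level over all 8 was 42564 and 60269 FPKM in mos2-2 and 30884 and 44938 FPKM in Col-0. Of 9 root markers 3 were listed at 0 in every library, namely root hair expansin genes EXPA7 and EXPA18 and the endodermal gene CASP5. PIN2, COBL9 and CASP1 were at most at 0.782 FPKM. These transcripts were thus at or near 0 in libraries labelled as seedlings. NRT2.1 was at 0.150 and 1.38 FPKM in mos2-2 and 0.840 and 0.680 FPKM in Col-0. The summed level of the 9 root markers was 8.64 and 13.5 FPKM in mos2-2 and 16.6 and 13.1 FPKM in Col-0, mostly from SCR and SHR, which shoots also express. Of 6 flower and seed markers the seed genes CRU3 and OLEO1 were listed at 0 throughout, and the 4 floral genes overlapped between genotypes. The floral gene AP3 was above 0 in every library, at 1.38 and 6.66 FPKM in mos2-2 and 11.7 and 3.84 FPKM in Col-0. The part of these shifts in the glutathione S-transferase values was not tested.

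Of the 10 members, 5 were lower in both mos2-2 libraries than in either Col-0 library, namely GSTF2, GSTF3, GSTF6, GSTF7 and GSTF10. GSTF8 and GSTF9 had lower means in mos2-2 with overlapping libraries, and GSTF4 had nearly equal, overlapping values. GSTF5 and GSTF14 were close to 0 in both genotypes. A mean of at least 1 FPKM over the 4 libraries was asked for before fitting limma, a linear model with moderated variances, to log2(FPKM + 1), and 8 members met it. The 5 members without overlap were also at least 2-fold lower on the log2(FPKM + 1) scale. Over all 19236 genes fitted, 24.7% were lower without overlap and 3.65% were also at least 2-fold lower, while 13.1% were higher without overlap and 1.14% also at least 2-fold higher, as none of the members was. Among all genes 12 (0.0624%) passed a Benjamini-Hochberg adjusted p of 0.05 in the limma fit, and 7.02% had an unadjusted p below 0.05, which are the backgrounds for the other gene lists below. Nothing about the members is read from these shares, because the family was chosen on this contrast. An exact permutation test of 2 libraries against 2 could not give a two-sided p below 0.333.

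**Figure D1:**
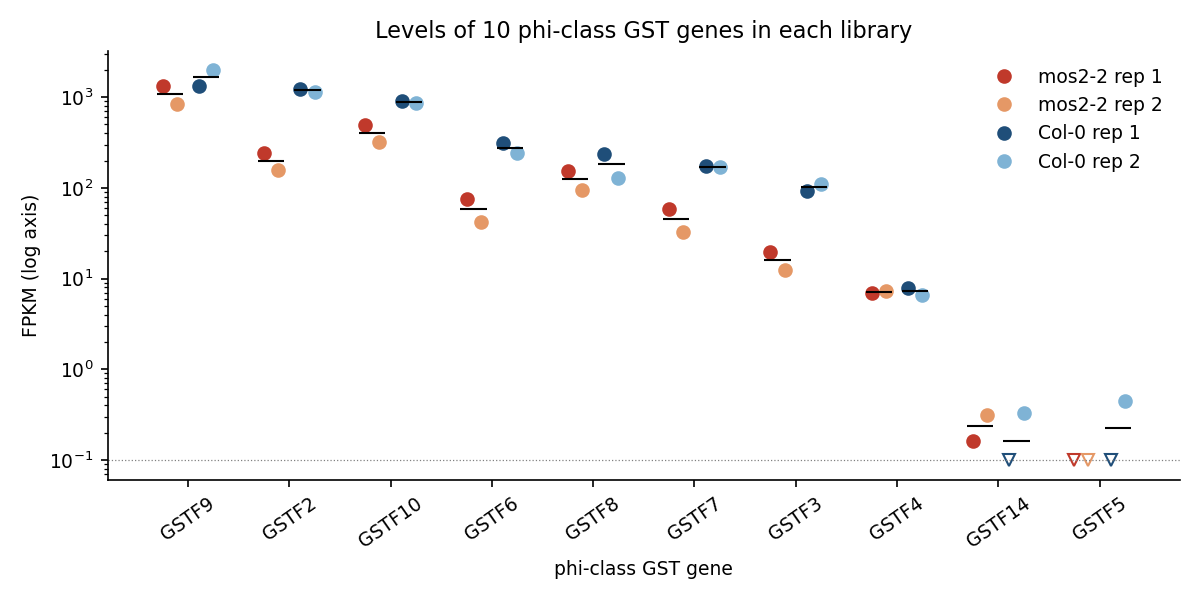
FPKM on a log axis of the 10 phi-class genes, ordered by their mean in Col-0 except for GSTF14 and GSTF5 at the end. Each gene has 1 point per library, the 2 mos2-2 libraries left of the 2 Col-0 libraries, and black lines at the genotype means. Open triangles on the dotted line mark values of 0. GSTF2, GSTF10, GSTF6, GSTF7 and GSTF3 show no overlap between the genotypes, with GSTF2 at 243 and 156 FPKM in mos2-2 against 1230 and 1146 FPKM in Col-0.

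GSTF2 (AT4G02520) encodes a phi-class enzyme also known as a ligand-binding protein that takes up camalexin and other small aromatic compounds. It lies at chr4:1110343-1112033 (minus strand, TAIR10.1) and has 3 annotated exons and a coding sequence of 639 nt. It was at 243 and 156 FPKM in the mos2-2 libraries and at 1230 and 1146 FPKM in the Col-0 libraries. Both mos2-2 libraries lay far below both Col-0 libraries, and mos2-2 replicate 2 was the lowest. The means were 199.6 ± 61.4 FPKM in mos2-2 and 1188 ± 59.6 FPKM in Col-0 (SD, n = 2 each), 5.95-fold lower, with a log2 difference of -2.60 (SE 0.35). By level GSTF2 ranked 700 and 1091 among all loci in the mos2-2 libraries and 116 and 133 in the Col-0 libraries. Most of its annotated span of 1691 nt overlaps TOC159, the gene of a chloroplast import receptor on the opposite strand. The counting is not stated to use strand, so reads in the overlap cannot be assigned with certainty. TOC159 stood at 46.2 and 37.5 FPKM in mos2-2 and 52.3 and 53.8 FPKM in Col-0, below GSTF2 in every library.

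GSTF3 (AT2G02930) is the closest relative of GSTF2 and lies on another chromosome, at chr2:851156-852321 on the minus strand. It was at 19.4 and 12.6 FPKM in mos2-2 and at 91.6 and 110.4 FPKM in Col-0, again without overlap. The means were 16.0 ± 4.82 FPKM in mos2-2 and 101.0 ± 13.3 FPKM in Col-0 (SD, n = 2 each), 6.31-fold lower, with a log2 difference of -2.61 (SE 0.31). The coding sequences of the GSTF2 and GSTF3 genes are 94.5% identical (604 of 639 aligned bases). Their first 120 coding bases lie at chr4:1111412-1111531 and chr2:851987-852106 on the minus strands of TAIR10.1. They are shown because reads within this stretch can be assigned to a copy only where the copies differ. The capitals mark the 4 differing bases.
GSTF2: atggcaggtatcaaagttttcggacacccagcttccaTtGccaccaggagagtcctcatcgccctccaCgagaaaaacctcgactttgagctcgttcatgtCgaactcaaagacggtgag
GSTF3: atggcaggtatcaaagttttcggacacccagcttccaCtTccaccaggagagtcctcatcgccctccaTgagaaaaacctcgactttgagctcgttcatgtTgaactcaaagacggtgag
Of the 36 nt windows of the longest GSTF2 transcript, 6.83% occur exactly in GSTF3, and 9.69% of those of GSTF3 occur in GSTF2. Of the 75 nt windows none is shared. The read length is not given in the sources used here, so the split of reads between the copies is uncertain to that extent. Added together, GSTF2 and GSTF3 reached 262.5 and 168.8 FPKM in mos2-2 and 1321 and 1256 FPKM in Col-0, with a ratio of the means of 0.167. The ratio of GSTF3 to GSTF2 was 0.0798 and 0.0806 in mos2-2 and 0.0745 and 0.0964 in Col-0, so the genotypes overlapped in it.

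GSTF6 (AT1G02930), also named ERD11 from its response to drying, encodes the enzyme known to join glutathione to indole-3-acetonitrile in the synthesis of the phytoalexin camalexin. It lies at chr1:661088-662475 on the minus strand, between GSTF7 and GSTF5. It was at 76.0 and 42.2 FPKM in mos2-2 and at 309 and 240.5 FPKM in Col-0. The libraries did not overlap, although the replicates of each genotype were more unequal than those of GSTF2. The means were 59.1 ± 23.9 FPKM in mos2-2 and 275 ± 48.8 FPKM in Col-0 (SD, n = 2 each), 4.65-fold lower, with a log2 difference of -2.25 (SE 0.38).

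GSTF7 (AT1G02920) is the near copy of GSTF6 that follows it in the cluster, at chr1:658578-659980 on the minus strand, 1107 nt away. It was at 59.2 and 32.5 FPKM in mos2-2 and at 174.5 and 168.7 FPKM in Col-0. The Col-0 libraries were almost equal and the mos2-2 libraries were not. The means were 45.8 ± 18.9 FPKM in mos2-2 and 171.6 ± 4.15 FPKM in Col-0 (SD, n = 2 each), 3.74-fold lower, with a log2 difference of -1.94 (SE 0.36). The coding sequences of GSTF6 and GSTF7 are 94.7% identical (594 of 627 aligned bases). Their first 120 coding bases, at chr1:662072-662191 and chr1:659586-659705, differ at 2 bases, in capitals, and show how little separates the copies there.
GSTF6: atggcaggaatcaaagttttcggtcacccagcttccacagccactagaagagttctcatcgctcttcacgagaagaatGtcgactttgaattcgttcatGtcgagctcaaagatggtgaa
GSTF7: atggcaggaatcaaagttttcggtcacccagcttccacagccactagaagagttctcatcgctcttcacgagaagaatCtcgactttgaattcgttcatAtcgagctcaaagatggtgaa
Of the 36 nt windows of the GSTF6 transcript 14.3% occur in GSTF7, and of its 75 nt windows 4.77% do, the largest overlap between any members. The sum of GSTF6 and GSTF7 was 135 and 74.7 FPKM in mos2-2 and 484 and 409 FPKM in Col-0, with a ratio of the means of 0.235. The ratio of GSTF7 to GSTF6 was 0.779 and 0.770 in mos2-2 and 0.564 and 0.701 in Col-0, slightly higher in both mos2-2 libraries.

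The cluster on chromosome 1 holds GSTF4, GSTF5, GSTF6 and GSTF7 in 1 orientation. GSTF4 and GSTF5 showed no such separation between the genotypes. GSTF4 (AT1G02950) was at 6.92 and 7.21 FPKM in mos2-2 and at 7.86 and 6.60 FPKM in Col-0, with overlap, a log2 difference of -0.03 (SE 0.23) and an estimated 32.3 to 48.8 reads per library. The sign of that difference turned with median-ratio scaling (0.07) and with quantile normalization (0.08). GSTF5 (AT1G02940), 487 nt from GSTF6, was listed at 0 in both mos2-2 libraries and in Col-0 replicate 1, and was at 0.451 FPKM in Col-0 replicate 2, an estimated 3.0 reads. Of the protein-coding genes that flank the cluster, 1 overlapped and the other was lower by a smaller margin. LPA1, next to GSTF7 and needed for photosystem assembly, was at 37.9 and 36.4 FPKM in mos2-2 and 42.6 and 25.5 FPKM in Col-0. AT1G02960, next to GSTF4, was at 6.52 and 6.14 FPKM in mos2-2 and 9.78 and 8.27 FPKM in Col-0, a log2 difference of -0.45 without overlap.

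**Figure D2:**
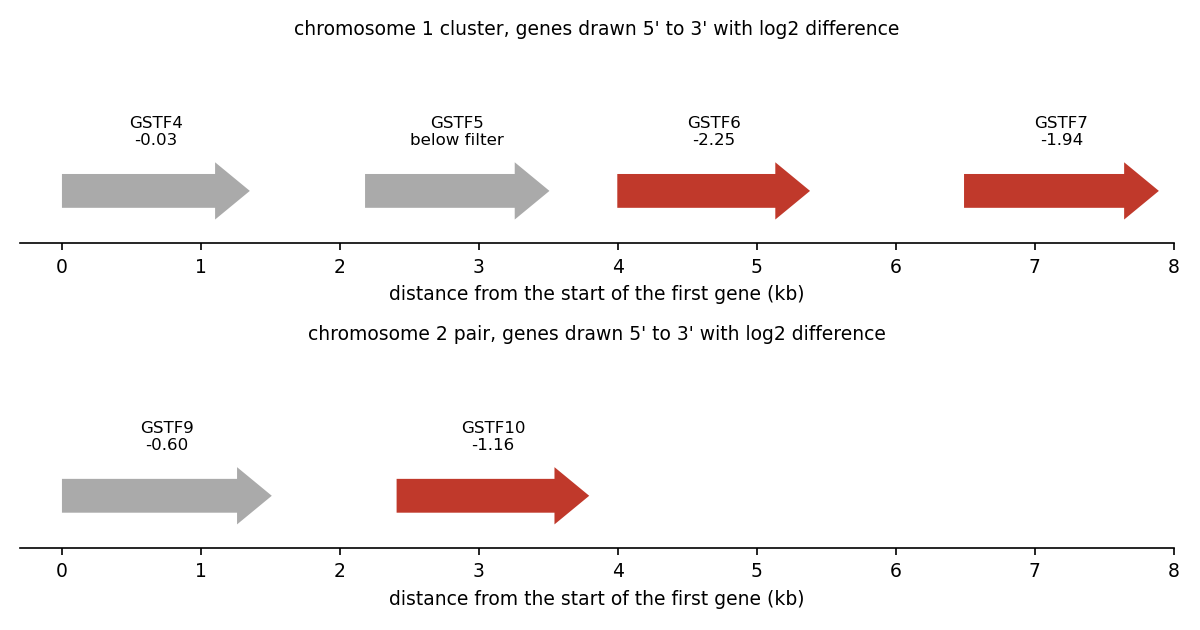
Gene models of the chromosome 1 cluster and the chromosome 2 pair, drawn to scale in the direction of transcription with the distance in kb from the start of the first gene; red arrows are genes whose mos2-2 libraries both lay below both Col-0 libraries, grey arrows the others, and the number under each name is the log2 difference of mos2-2 minus Col-0. GSTF6 (-2.25) and GSTF7 (-1.94) are red, while GSTF4 (-0.03) and the barely detected GSTF5 in the same cluster are grey.

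The 250 bases before the annotated start of GSTF7 are shown because this window held the most matches to TTGAC among the members examined. They lie at chr1:659981-660230, read from TAIR10.1 on the minus strand, and the capitals mark the letters TTGAC on either strand, the core of the W-box bound by WRKY factors.
GSTF7: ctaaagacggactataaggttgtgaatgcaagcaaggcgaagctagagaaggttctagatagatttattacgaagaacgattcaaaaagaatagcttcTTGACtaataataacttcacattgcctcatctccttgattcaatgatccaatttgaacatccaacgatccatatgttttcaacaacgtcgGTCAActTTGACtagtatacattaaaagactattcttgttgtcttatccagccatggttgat
GSTF7 has 3 TTGAC, at 152, 62 and 55 bases before its start. The windows of 9 members were examined, and TTGAC was present in 5 of them and in 44.9% of the windows of the same length of 27443 nuclear protein-coding genes. TGACG, the core of the as-1 element bound by TGA factors, was present before GSTF3, GSTF8 and GSTF10, 3 of 9, against 18.6% of all such windows. CACGTG, the G-box, was in none of the 9, against 6.49% of all windows. All motifs were searched on both strands, a TTGAC and a TGACG may overlap in TTGACG, and none did in these members. The GSTF2 and GSTF8 windows lie in part within a neighbouring gene. A match is a description of letters, and the lack of one says nothing about sites further away.

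The other tandem pair, GSTF9 and GSTF10 on chromosome 2, included the most abundant member, GSTF9. Both differed less between the genotypes than GSTF2, GSTF3, GSTF6 and GSTF7. In Col-0 GSTF10 was below GSTF2. GSTF9 (AT2G30860), an enzyme with glutathione transferase and peroxidase activity, was at 1344 and 848 FPKM in mos2-2 and at 1328 and 1980 FPKM in Col-0. Replicate 1 was nearly equal in the genotypes, so the libraries overlapped, at 1096 ± 351 FPKM in mos2-2 and 1654 ± 461 FPKM in Col-0 (SD, n = 2 each), with a log2 difference of -0.60 (SE 0.41). GSTF10 (AT2G30870), also named ERD13 from its induction by drying, begins 897 nt after GSTF9 on the plus strand. It was at 488.5 and 321 FPKM in mos2-2 and at 917 and 859 FPKM in Col-0. Here the libraries did not overlap, at 404.7 ± 118 FPKM in mos2-2 and 888 ± 40.8 FPKM in Col-0 (SD, n = 2 each), 2.19-fold lower, with a log2 difference of -1.16 (SE 0.34), which was -0.86 without mos2-2 replicate 2. Their coding sequences are 77.6% identical and share no 36 nt window. The ratio of GSTF10 to GSTF9 was 0.364 and 0.379 in mos2-2 and 0.691 and 0.434 in Col-0, lower in both mos2-2 libraries. SWAP70, whose annotated end overlaps that of GSTF10 on the opposite strand by 12 nt, was at 15.0 and 13.1 FPKM in mos2-2 and 13.9 and 12.4 FPKM in Col-0, with overlap.

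GSTF8 (AT2G47730), known for a promoter that responds early to salicylic acid and hydrogen peroxide, stood apart from GSTF2, GSTF3, GSTF6 and GSTF7. It was at 155 and 95.9 FPKM in mos2-2 and at 238 and 128 FPKM in Col-0. The gap between the Col-0 replicates was wider than that between the genotypes, at 125.5 ± 41.8 FPKM in mos2-2 and 183 ± 77.7 FPKM in Col-0 (SD, n = 2 each), with a log2 difference of -0.52 (SE 0.44). The locus AT2G47720 annotated within it was at most at 8.45e-08 FPKM in any library. GSTF14 (AT1G49860) was at 0.163 and 0.316 FPKM in mos2-2, was listed at 0 in Col-0 replicate 1 and was at 0.328 FPKM in Col-0 replicate 2. These values are worth an estimated 1.3 to 2.6 reads, so no difference between the genotypes was detectable for it, nor for GSTF5, at this depth.

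**Figure D3:**
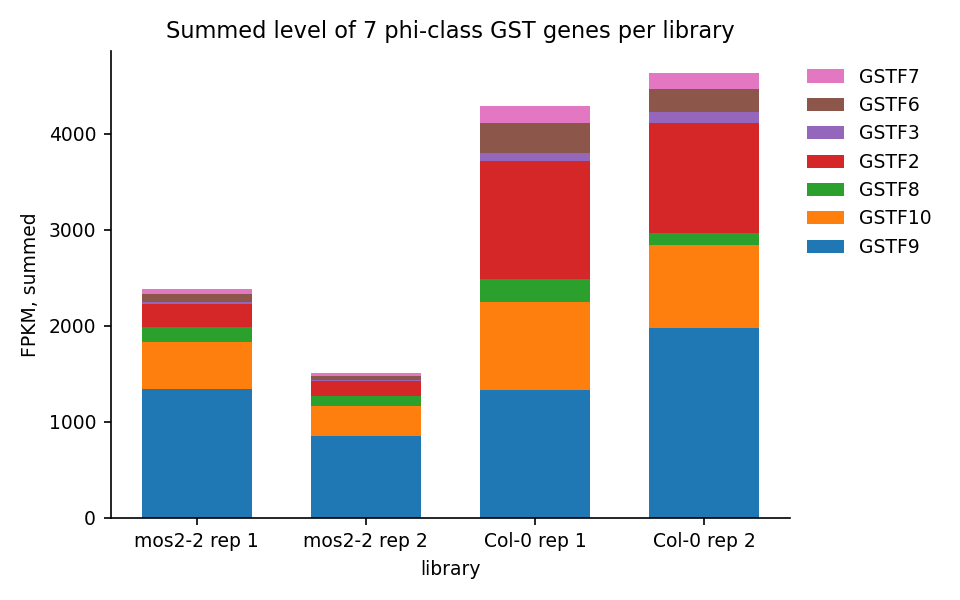
Summed FPKM of the 7 most abundant phi-class genes in each library, stacked by gene with the axis from 0; 1 bar per library, the mos2-2 libraries left of the Col-0 libraries. The GSTF9 layer of mos2-2 replicate 1 (1344 FPKM) is as tall as that of Col-0 replicate 1 (1328 FPKM), while the GSTF2 layer is 243 against 1230 FPKM.

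Added over the 10 members, the level was 2392 and 1516 FPKM in mos2-2 and 4296 and 4640 FPKM in Col-0, 2.29-fold lower. Without GSTF9 the sum was 1048 and 668 FPKM in mos2-2 and 2968 and 2660 FPKM in Col-0, 3.28-fold lower. The make-up of the family differed too. GSTF2 gave 10.2% and 10.3% of the summed level in mos2-2 and 28.6% and 24.7% in Col-0, and GSTF9 gave 56.2% and 55.9% in mos2-2 and 30.9% and 42.7% in Col-0. By mean FPKM, which is per length, the order in mos2-2 was GSTF9, GSTF10, GSTF2, GSTF8, GSTF6, GSTF7, GSTF3 and GSTF4, and in Col-0 it was GSTF9, GSTF2, GSTF10, GSTF6, GSTF8, GSTF7, GSTF3 and GSTF4. Neighbours in that order whose libraries overlapped were GSTF6 and GSTF7 in mos2-2, and GSTF8 and GSTF7 in Col-0. Within each mos2-2 library GSTF6 was above GSTF7, while GSTF8 was above GSTF7 in Col-0 replicate 1 and below it in replicate 2.

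In 7 of the 8 members past the filter mos2-2 replicate 2 was below replicate 1, GSTF4 being the exception, and the ratio of replicate 2 to replicate 1 in those 7 ran from 0.549 for GSTF7 to 0.657 for GSTF10. In Col-0 replicate 2 was below replicate 1 in 6 of the 8, with GSTF3 and GSTF9 above, and the ratio ran from 0.539 for GSTF8 to 1.49 for GSTF9. The genotype difference exceeded the log2 gap between the replicates of both genotypes in 5 members, which were the same as those without overlap. The smallest of these margins was that of GSTF10, whose mos2-2 replicates were 0.60 apart on the log2 scale.

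**Figure D4:**
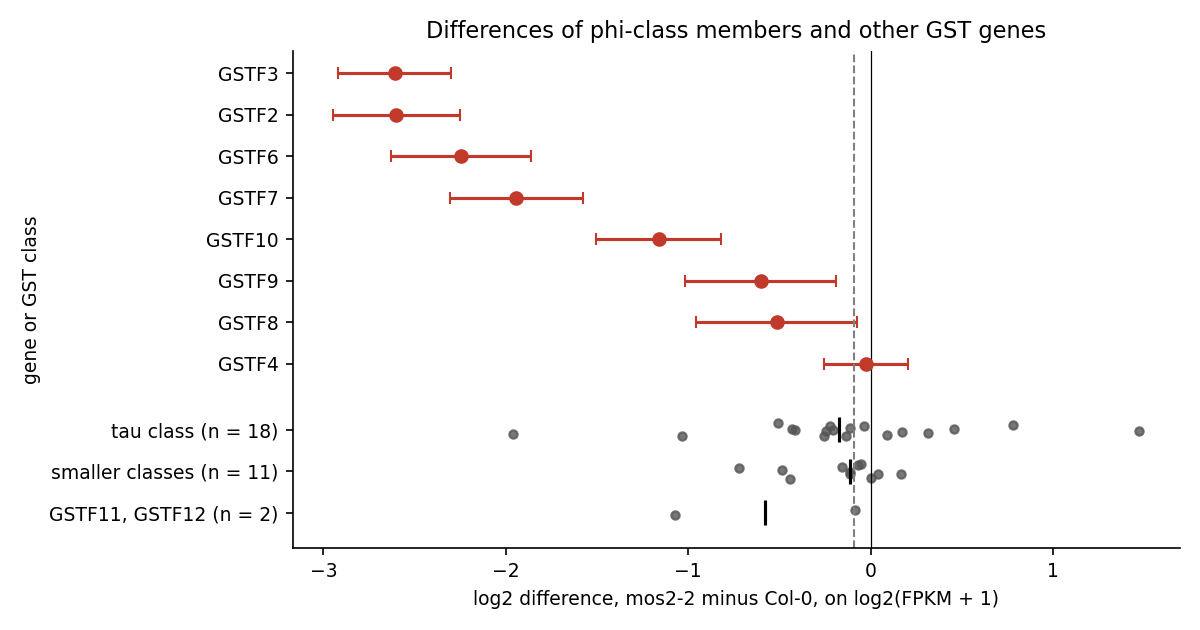
Log2 difference of mos2-2 minus Col-0 on log2(FPKM + 1) for the 8 phi-class members past the filter, red points with bars of 1 SE, and below them grey points for each fitted gene of the tau class, of the smaller classes and for GSTF11 and GSTF12, with black ticks at the class medians; the dashed line is the median of all genes (-0.09). The members run from -2.61 for GSTF3 to -0.03 for GSTF4, and the tau class has its median at -0.17.

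Without further scaling all genes together had a median log2 difference of -0.09, which quantile normalization moved by 0.104. Relative to that median the differences were -2.52 for GSTF3, -2.51 for GSTF2, -2.16 for GSTF6, -1.85 for GSTF7, -1.07 for GSTF10, -0.51 for GSTF9, -0.42 for GSTF8 and 0.07 for GSTF4. The median of the 8 fitted members was -1.55.

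Among the phi-class genes outside the 10, GSTF12, which carries anthocyanins towards the vacuole, was at 3.78 and 8.82 FPKM in mos2-2 and 8.86 and 20.1 FPKM in Col-0. The libraries were separated by a narrow margin only, with a limma adjusted p of 0.762. GSTF11 was at 6.21 and 14.5 FPKM in mos2-2 and 4.10 and 23.7 FPKM in Col-0, with overlap, and GSTF13 was listed at 0 in all libraries. In both GSTF11 and GSTF12 replicate 2 was above replicate 1 in each genotype.

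The tau class, the other large plant class of these enzymes, was fitted for 18 of 28 genes. By limma none was called in either direction at an adjusted p of 0.05. At an unadjusted p below 0.05 there were 1 higher and 2 lower genes. The 18 fitted tau genes had a median log2 difference of -0.17, beside -0.09 over all genes. Without overlap 7 were lower and 2 higher, beside 24.7% and 13.1% of all genes fitted. GSTU4 was at 3.99 and 2.46 FPKM in mos2-2 and 27.5 and 8.21 FPKM in Col-0, and GSTU7 at 12.7 and 10.5 FPKM in mos2-2 and 33.0 and 18.3 FPKM in Col-0. In the other direction GSTU8 was at 6.44 and 3.21 FPKM in mos2-2 and 1.56 and 0.589 FPKM in Col-0. GSTU5 was at 222 and 174 FPKM in mos2-2 and 158 and 82.1 FPKM in Col-0. Tau genes thus lay on both sides of 0, and none of these 4 passed (limma adjusted p 0.654 for GSTU4 and GSTU8, 0.696 for GSTU7 and 0.776 for GSTU5).

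Of 12 genes of the smaller classes (zeta, theta, lambda, dehydroascorbate reductases and AT1G77290) 11 were fitted. By limma none was called, none had an unadjusted p below 0.05, and the median log2 difference was -0.11. The smallest p was that of GSTZ1, an isomerase of tyrosine breakdown, at 38.1 and 31.2 FPKM in mos2-2 and 48.8 and 67.8 FPKM in Col-0. DHAR1, which regenerates ascorbate with glutathione, was at 268 and 197 FPKM in mos2-2 and 300.5 and 346 FPKM in Col-0. The theta-class gene GSTT2 was at 3.73 and 3.58 FPKM in mos2-2 and 6.03 and 4.69 FPKM in Col-0. These 3 genes were lower without overlap, as were 24.7% of all genes fitted. DHAR3, the chloroplast form, overlapped, at 172 and 129 FPKM in mos2-2 and 184 and 149 FPKM in Col-0. Of all 31 fitted glutathione S-transferase genes outside the 10, 3 were at least 2-fold lower without overlap, namely GSTU4, GSTU7 and GSTF12. At least 2-fold higher without overlap was 1, GSTU8. Over all genes fitted the shares were 3.65% lower and 1.14% higher in this way.

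Genes of glutathione synthesis, turnover and use were fitted in 20 of 22 cases. By limma none was called, the counts at an unadjusted p below 0.05 were 1 higher and 3 lower, and the median log2 difference was -0.26. Without overlap 8 of the 20 were lower and 3 higher, beside 24.7% and 13.1% of all genes fitted. Both synthesis genes were lower without overlap, though less than 2-fold, with GSH1, the first step, at 109 and 79.7 FPKM in mos2-2 and 124 and 121 FPKM in Col-0, and GSH2, the second step, at 55.9 and 38.8 FPKM in mos2-2 and 74.6 and 68.0 FPKM in Col-0. GGCT2;1, a cyclotransferase that breaks glutathione down, was at 0.350 and 2.20 FPKM in mos2-2 and 10.6 and 5.63 FPKM in Col-0. GPX7, a chloroplast peroxidase of the glutathione peroxidase family, was at 12.0 and 22.8 FPKM in mos2-2 and 3.26 and 6.68 FPKM in Col-0. The limma adjusted p was 0.633 for both GGCT2;1 and GPX7. CLT2, a plastid envelope transporter of glutathione, was at 8.71 and 9.15 FPKM in mos2-2 and 15.4 and 14.5 FPKM in Col-0. GGT4, a vacuolar transpeptidase that breaks down glutathione conjugates, was at 10.3 and 9.83 FPKM in mos2-2 and 14.8 and 18.2 FPKM in Col-0, lower without overlap.

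Of the 3 ABCC transporters that move glutathione conjugates into the vacuole, ABCC3 was at 20.0 and 18.8 FPKM in mos2-2 and 11.1 and 6.66 FPKM in Col-0, higher without overlap, with a limma adjusted p of 0.633. ABCC1 and ABCC2 overlapped. Of the 5 camalexin genes, which act around the step of GSTF6, all were fitted and none was called by limma, with 1 lower at an unadjusted p below 0.05. That gene was PAD3, the last step, at 3.85 and 2.29 FPKM in mos2-2 and 21.4 and 8.80 FPKM in Col-0. CYP71A13, which makes indole-3-acetonitrile, was at 5.45 and 6.83 FPKM in mos2-2 and 5.84 and 3.23 FPKM in Col-0, with overlap, and CYP79B2 and CYP79B3 also overlapped.

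The 10 regulators of the as-1 element, TGA factors and their partners, had a median log2 difference of -0.02, with none called by limma and none at an unadjusted p below 0.05. The smallest p was that of SCL14, a partner of TGA factors in the activation of detoxification genes, at 11.4 and 8.56 FPKM in mos2-2 and 12.5 and 16.5 FPKM in Col-0, lower without overlap (log2 difference -0.50, SE 0.27; limma adjusted p 0.789). NPR1, the salicylic acid receptor and coactivator, was at 20.5 and 14.9 FPKM in mos2-2 and 26.2 and 18.6 FPKM in Col-0, with overlap. TGA2 was at 8.71 and 8.46 FPKM in mos2-2 and 7.19 and 6.30 FPKM in Col-0. TGA5 was at 9.78 and 9.60 FPKM in mos2-2 and 7.69 and 8.32 FPKM in Col-0. Both were higher without overlap (limma adjusted p 0.80 and 0.83). Among the 10 regulators 2 were thus higher and 1 lower without overlap, beside 13.1% and 24.7% of all genes fitted. The 8 salicylic acid markers had a median of -1.10. None was called by limma, and 6 were lower at an unadjusted p below 0.05. PR5 was at 93.7 and 76.0 FPKM in mos2-2 and 325 and 260.2 FPKM in Col-0, and PBS3, which makes a salicylic acid precursor conjugate, at 1.22 and 1.25 FPKM in mos2-2 and 3.68 and 4.99 FPKM in Col-0. NIMIN1, which binds NPR1, was at 3.02 and 7.67 FPKM in mos2-2 and 21.1 and 16.3 FPKM in Col-0. PR1 overlapped, at 764 and 25.3 FPKM in mos2-2 and 150 and 155 FPKM in Col-0.

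Genes with the most similar values over the 4 libraries were sought by the Euclidean distance between log2(FPKM + 1) profiles, each minus its own mean, across the 14159 other genes that averaged 5 FPKM or more. Nearest to GSTF2 were GSTF3 (distance 0.264), GSTF6 (0.422), the beta-glucanase gene BGL2 (0.427), AT1G58225 (0.502) and AT5G10760 (0.507). GSTF7 was number 12 in that order, GSTF10 number 172, GSTF9 number 1272, GSTF8 number 1814 and GSTF4 number 7294. Nearest to GSTF6 were BGL2 (0.194), PNP-A (0.298), AT1G59960 (0.326), AT1G58225 (0.341) and AT3G01830 (0.361), with GSTF7 number 6 (0.377) and GSTF2 number 9 (0.422). BGL2 was at 46.6 and 24.0 FPKM in mos2-2 and 215 and 149 FPKM in Col-0. With 4 libraries such distances mainly order genes by their difference between genotypes and by the gap between replicates.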

How the data were processed

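The authors deposited 1 table of FPKM values per library, made with TopHat and Cuffdiff against the TAIR10 genome according to the submitters' processing notes. Tool versions, annotation release, read length, strand setting and how multiply matching reads were handled stay unknown, being not given in the sources used here. All 4 libraries list the same 33557 loci, with 8594 of these at 0 throughout, and no libraries held identical values.

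Names, gene models and sequences came from RefSeq TAIR10.1, which matched 32810 loci. An exact 0 can be a failed estimate, so such genes are described as listed at 0. The worth of 1 read was taken from the most common low value of FPKM times length. Only genes with 1 transcript and a length within a set range were used, so read numbers are estimates.

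Limma 3.58.1 in R 4.3.3 was fitted to log2(FPKM + 1) of the 19236 genes averaging 1 FPKM or more. Genotype was its sole term, with a variance trend, two-sided tests and Benjamini-Hochberg adjustment over all genes. Log2 differences are on that scale, which understates changes of low genes, and folds are ratios of mean FPKM. The fit was also run on simulated data as a check of the code. Its gene variances were drawn around their median, so that run does not measure power in these libraries. Coding sequences were aligned with Biopython 1.88.

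Members, lists and naming rule were chosen with earlier results of these data known. The rule names all members, GSTF11 to GSTF13, MOS2, up to 4 genes of each other list by smallest unadjusted p (tissue markers as counts and ranges), and the 5 genes nearest to GSTF2 and to GSTF6. GSH1, GSH2, ABCC1, ABCC2, PR1, the root markers and the genes beside members were named for context. Alternatives were other pseudocounts, filters and scalings, no trend, the replicate number as a block, and each library left out. The upstream window of 1 member and 1 root marker are not reported here.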

Additional observations from a re-analysis of the deposited data

How the results depend on the processing

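All 5 members without overlap stayed at least 2-fold lower in mos2-2 under each pseudocount and scaling. Without mos2-2 replicate 2 this held for 4, and GSTF10 was at -0.86. The filter, trend and block alternatives cannot change a member's log2 difference in this balanced design, so they are no check of it. The median of the 8 fitted members lay between -1.57 and -1.45 under the pseudocount and scaling alternatives. With a library left out it lay between -1.92 and -1.19. The ratio of mos2-2 to Col-0 was 0.131 to 0.204 for the sum of GSTF2 and GSTF3 and 0.167 to 0.303 for that of GSTF6 and GSTF7 with a library left out. The limma count of 12 genes was 4 at a pseudocount of 5, 4 if no filter was used, 7 if no trend was used and 6 under a replicate block. The causes of these changes were not tested. It was 0 with any library left out, with 819 to 1790 genes at an unadjusted p below 0.05. Such a fit keeps 1 residual degree of freedom and takes the lone library to vary as much as the other genotype does. The median of the glutathione genes (-0.26) was 0.01 without mos2-2 replicate 2. That of the as-1 regulators (-0.02) was 0.10 without mos2-2 replicate 1 and 0.08 under median-ratio or quantile scaling. The salicylic acid markers (-1.10) were at -0.62 with a pseudocount of 5 and at -1.39 with a pseudocount of 0.1. The tau class (-0.17) was at -0.05 under quantile scaling and -0.06 without Col-0 replicate 2. The smaller classes (-0.11) were at -0.01 under either scaling and lay between -0.24 and 0.03 with a library left out. The genotypes share replicate numbers that are no stated pairing, and same-numbered deviations correlated across genes with r = 0.211. The depth limits GSTF5 and GSTF14, which rest on a few reads.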
